A study of Canis lupus familiaris with 77 samples.

Results

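The miRNAs described here carry dog names with a number of 4 digits that begins with 8. They were taken by name alone, as each entry called cfa-miR with such a number, whatever letter or arm followed it. Of the 650 miRNAs with at least 1 read in the atlas, 60 met this rule. miRNAs are short RNAs cut from hairpin precursors, and in a complex with an Argonaute protein they pair with messenger RNAs and lower their output. In these names cfa stands for the dog, the number was given in order of submission to the miRNA registry, a letter marks mature sequences that differ slightly, and 3p and 5p mark the arm of the hairpin. High numbers therefore belong to miRNAs that were registered late. Testis is known for miRNAs of limited species range, among them the miR-506 family, which is encoded on the X chromosome.

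Small RNA was sequenced from 16 tissues of 5 untreated male Marshall beagle dogs 10 months of age, which had been perfused with buffered saline to remove blood before the organs were taken. There were 5 samples each of bone marrow, brain, duodenum, heart, ileum, jejunum, kidney, liver, lung, pancreas, plasma, skeletal muscle, testis and thymus, 4 of colon and 2 of sciatic nerve. No group was treated, so each comparison is of 1 tissue with the others. The libraries of all tissues come from the same 5 animals, but the labels carry no dog number, so the tests treat the 76 libraries as independent. The study's accounts of the sciatic nerve RNA differ on pooling, and a p-value measures only the spread between these samples. Bone marrow RNA was isolated with another reagent than the solid tissues, and plasma RNA in a separate procedure from a set volume. The study also reported low RNA integrity for plasma, bone marrow and some kidney samples, and a lower share of mapped reads for bone marrow. For bone marrow and plasma these differences cannot be told apart from the tissue itself. Reads on miRNAs numbered from 157871 to 7896424 per library, and levels are given as RPM, the reads of a miRNA scaled to a common total of reads on miRNAs.

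Checks of the labels set several libraries apart, 1 of them of testis, which bears on many of the values below. Of 14 lists of miRNAs taken to mark a tissue, 10 had their highest median level in the tissue they mark. The lists of skeletal muscle, bone marrow, thymus and sciatic nerve were instead highest in heart, plasma, brain and kidney, in that order. The study itself reported miR-202, miR-449a, miR-34b, miR-34c and members of the miR-506 family as testis enriched in these data. The agreement of the testis list with its label was thus largely built in. Other lists, such as those of liver (miR-122), heart (miR-499) and pancreas (miR-216a), also hold miRNAs that the study called enriched there. Over the 10 miRNAs of the testis list, among them miR-34b, miR-34c, miR-449a, miR-202 and members of the miR-506 family, the summed level was 59695, 5485, 640, 110026 and 95412 RPM in testis 1 to testis 5. The highest library of another tissue reached 2072 RPM, so the library labelled testis 3 lay below it and the other 4 lay above. In testis 3, 5 of the 10 were at 0 and 8 of the 10 were at their lowest. The sum of miR-143 and miR-145, known from smooth muscle, was 91582, 287874, 239419, 75315 and 82510 RPM, so testis 2 and testis 3 were the highest of the 5. By rank correlation testis 3 was nearest to colon, while the other 4 testis libraries were nearest to testis. Values for testis are given with and without testis 3. In all, 17 libraries were nearest to a tissue other than their own: all 5 of duodenum, 2 of ileum, 4 of skeletal muscle, testis 3 and all 5 of thymus. Skeletal muscle 4 was nearest to sciatic nerve and nearly lacked muscle miRNAs, with miR-133a at 676 RPM against 36539 to 108825 RPM in the other 4, and miR-206 at 4.54 against 258 to 817 RPM. Thymus 2, 3 and 5 had miR-181a, known from developing T cells, at 41991 to 53348 RPM, against 426312 and 500018 RPM in thymus 1 and thymus 4. The thymus list, to which miR-181a belongs, does not mark thymus alone, since its median was 187221 RPM in brain and 56698 RPM in thymus. Duodenum 4 had miR-192, known from gut epithelium, at 5188 RPM against 22363 to 385247 RPM in the others. With these 6 libraries left out together, a choice made after the values were seen, 59 of the 60 were detected. In bulk tissue, fewer cells of a type and less RNA per cell cannot be told apart.

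The 60 miRNAs stood apart from the other dog-named miRNAs in 2 respects. First, none of the 60 shared its entry with a rat or human miRNA in the merged names of the table, whereas 250 of the 296 other dog-named miRNAs (84.5%) did. The label of dog-only miRNAs thus describes this annotation. A rule on the registry number may itself select such entries, so this difference is not independent of the rule. Second, they had few reads. Together they took 10199 of 126561265 reads, which was 0.00806%, and 4 of them, miR-8908a-3p, miR-8884, miR-8859a and miR-8859b, held 74.1% of that. In all libraries together 34 of the 60 (56.7%) had at most 10 reads, against 10 of the 296 other dog-named miRNAs (3.38%). There were 15 with a single read, 26 with at most 3 reads and 13 with over 100. None was detected in every library, 4 were detected in every tissue, and 33 were detected in 1 tissue.

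**Figure D1:**
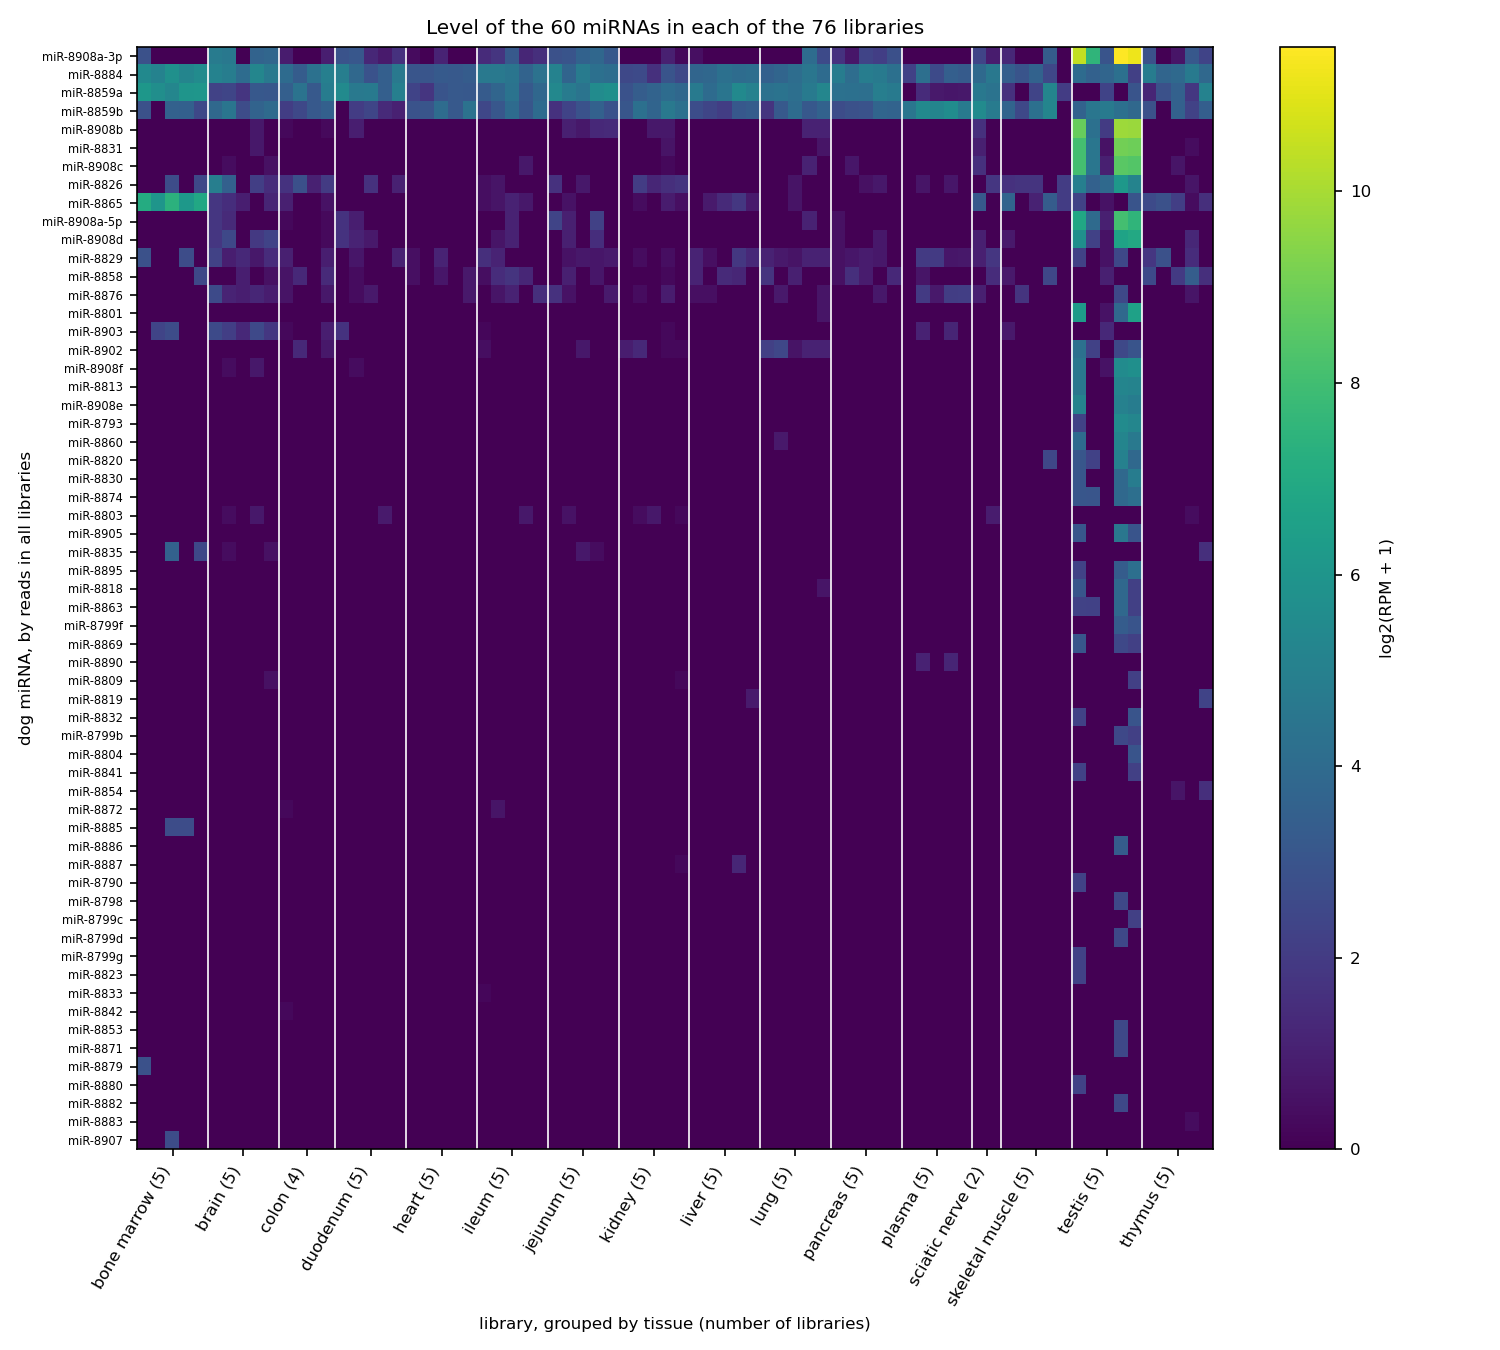
Level of the 60 miRNAs (rows, ordered by their reads in all libraries) in each of the 76 libraries (columns, grouped by tissue), as log2(RPM + 1) on the colour scale. Colour fills the rows of miR-8884, miR-8859a and miR-8859b across tissues, whereas most other rows are coloured in testis, and there less in the columns of testis 2 and testis 3.

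Testis had the highest summed level of the 60 miRNAs. The sum was 2877, 325, 72.5, 5574 and 4893 RPM in testis 1 to testis 5. In the other tissues the sum ran from 9.50 RPM in skeletal muscle 5 to 303 RPM in bone marrow 3, with a median of 53.5 RPM. The median in testis was 2877 RPM with all 5 libraries, 3885 RPM without testis 3 and 1601 RPM without testis 4. Testis 1, 2, 4 and 5 were above all libraries of other tissues, and testis 3 was within their range. Bone marrow came next, with 271, 151, 303, 190 and 248 RPM. Of the reads on the 60 miRNAs 35.6% came from testis, which supplied 2.43% of the reads of the atlas. The mean level was highest in testis for 39 of the 60 (65.0%), against 37 of the 296 other dog-named miRNAs (12.5%). With testis 3 left out it was again 39. The median over the 60 of testis's share in the sum of the 16 tissue means was 99.0%, and over all 650 miRNAs it was 4.14%. Where low counts were set aside, the contrast stood at 17 of the 26 with over 10 reads (65.4%) and 35 of the 286 other dog-named miRNAs with over 10 reads (12.2%).

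In the testis libraries 32, 13, 16, 34 and 33 of the 60 were detected, although 4 of these libraries were among the smaller ones, with 219585 to 287166 reads. Testis 3 had 2027090. At the depth of the smallest library of the atlas, 157871 reads, the expected numbers were 26.4, 10.9, 5.43, 30.8 and 27.9. The highest expected number in a library of another tissue was 8.37, in bone marrow 3. At equal depth testis 3 thus fell among the libraries of other tissues, and the other 4 stayed above them. In all, 47 of the 60 were detected in testis and 25 were detected there alone (41.7%, against 4.0% of all 650 miRNAs). Of those 25, 10 had 1 read and 5 had over 10. The 5 were miR-8793, miR-8813, miR-8830, miR-8874 and miR-8908e.

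**Figure D2:**
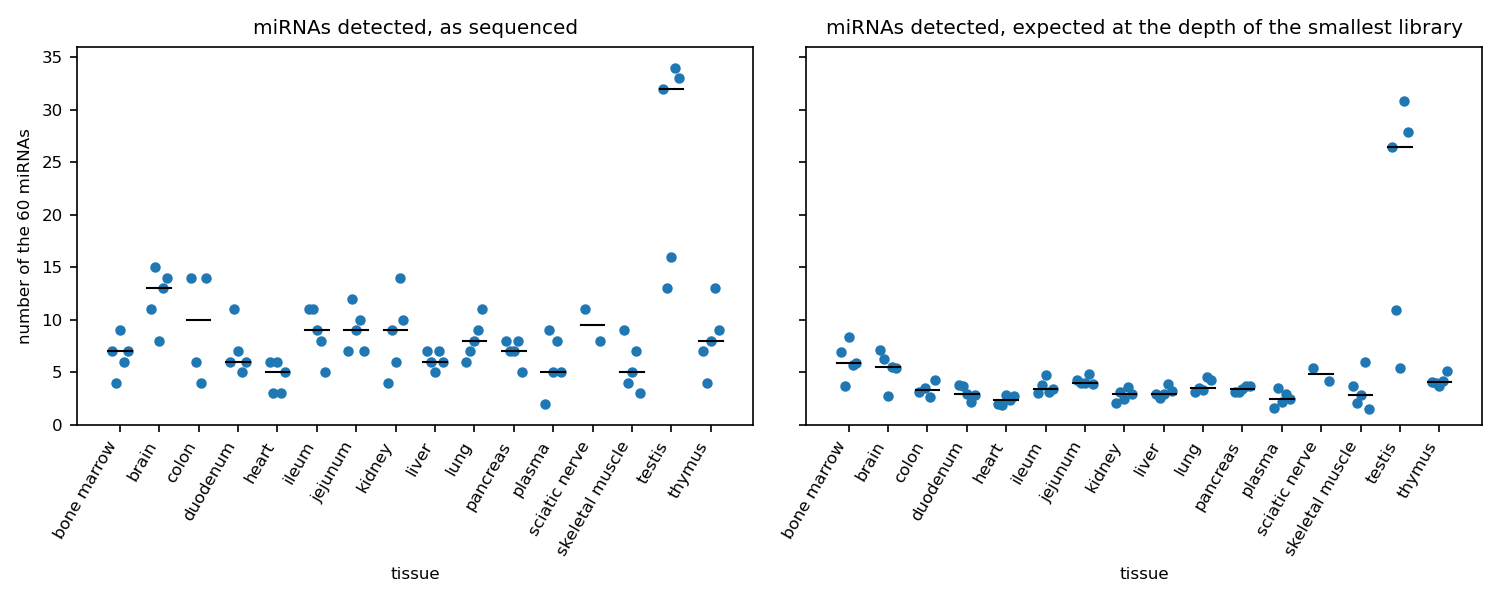
Number of the 60 miRNAs with at least 1 read per library, as sequenced (left) and by expectation at the depth of the smallest library (right), with 1 point per library and a line at the tissue median. Testis 1, 4 and 5 lie at 32 to 34 as sequenced and at 26.4 to 30.8 at equal depth, and testis 3 drops from 16 to 5.43.

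Tissue enrichment was asked of each miRNA and tissue by the study's criteria. For a tissue enriched (TE) miRNA, the mean RPM of the tissue had to exceed that of the remaining samples by a factor above 5. The exact rank-sum test, two-sided, had also to give an adjusted p below 0.05. By these criteria 31 of the 60 (51.7%) were TE in 1 tissue, and none was TE in more than 1. Over all 650 miRNAs 54.6% were TE in at least 1 tissue, so the share as a whole was near the background. In testis 26 of the 47 detected (55.3%) were TE, against 9.85% of all miRNAs detected there. Put the other way, 26 of the 52 miRNAs TE in testis were among the 60. In bone marrow 3 of 13 were TE (background 5.24%), in brain 1 of 19 (34.3%) and in plasma 1 of 9 (6.09%). In the other 12 tissues no miRNA of the group was TE. The background there was 0.389% in colon, 0.388% in ileum, 1.6% in jejunum, 0.982% in kidney, 1.91% in liver and 1.27% in lung. It was 2.67% in heart, 5.65% in pancreas, 1.51% in sciatic nerve and 2.13% in skeletal muscle, and no miRNA at all was TE in duodenum or thymus. Without testis 3 the number TE in testis was again 26, and without the 6 libraries low in markers it was 26 in testis and 32 in all.

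Many of these calls rested on few reads. Among the 31, 8 had from 2 to 4 reads in their tissue, and 7 had a median of 0 there because reads were found in 2 of 5 samples. An example is miR-8841, with 1 read in testis 1, 1 in testis 5 and none elsewhere. Such a miRNA passes the criteria since no other library has a read, and its level is at the limit of what these libraries can show. In testis 13 TE miRNAs of the group had no read elsewhere. They met the fold criterion because the mean elsewhere was 0, whatever their level in testis. Where at least 10 reads in a library were asked for, 14 of the 60 were TE, 12 of them in testis. Where the fold was taken between medians with 1 RPM added to each, the numbers were 19 and 17. Of the 29 that were not TE, 22 had at most 3 reads in all, so their tissue pattern was not detectable at this depth.

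High expression, a tissue median above 100 RPM, was reached by 6 of the 60. These were miR-8908a-3p, miR-8908b, miR-8908c, miR-8831 and miR-8908a-5p in testis and miR-8865 in bone marrow. All 6 were TE (10% of the 60, against 25.1% of all miRNAs). They were also highly tissue enriched (HTE), which was taken to require high expression and a tissue median more than 5 times the highest sample of any other tissue (10%, against 9.85% of all miRNAs). Where high expression was not required, 20 of the 60 met the criterion (33.3%, against 17.5% of all miRNAs), and 19 of the 20 did so in testis. Without testis 3 the same criteria again called 6, and without bone marrow 1 or 3, or testis 1, 4 or 5, they called 5. Scaled by TMM, the tissue median fell from 120 to 95.2 RPM for miR-8865 and from 113 to 72.7 RPM for miR-8908a-5p, and the other 4 stayed above 100 RPM.

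The miR-8908 family held 79.2% of the reads of the group in testis. It has 7 detected members, a pair from the arms of miR-8908a and miR-8908b to miR-8908f. Their genes, looked up by name in RefSeq's genes of a later dog genome (UU_Cfam_GSD_1.0), form a run of 12 neighbours. The run begins next to SLITRK2 and holds 11 miR-8908 genes, of which 4 are copies of miR-8908a and 3 are copies of miR-8908d, and 1 gene of another kind. Between MIR8908F and MIR506, the first gene of the miR-506 family on that side, lie 6 genes. Reads of the copies of miR-8908a or miR-8908d cannot be told apart from counts. How far the letters share reads cannot be told either.

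The leading member was miR-8908a-3p. Its level was 1380, 182, 6.91, 2910 and 2399 RPM in testis 1 to testis 5, and 26.7 RPM in brain 1, the highest library of another tissue. Testis 1, 2, 4 and 5 were above all other libraries, and testis 3 was not. The mean was 1376 ± 1294 RPM (SD, n = 5) in testis and 3.35 RPM elsewhere, a 411-fold ratio (two-sided exact rank-sum test, adjusted p = 0.000468). Without testis 3 the ratio was 513-fold. The median in testis was 51.6 times the highest other sample.

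The other arm, miR-8908a-5p, was lower but had the same order of samples, with 113, 14.6, 0.987, 264 and 181 RPM. Its highest library elsewhere was jejunum 1, with 2 reads or 4.21 RPM. The mean in testis was 423 times the mean elsewhere (exact rank-sum test, adjusted p = 0.000181, n = 5), and 528 times without testis 3. Between the arms, the 3p arm took 92.4%, 92.6%, 87.5%, 91.7% and 93.0% of the reads of miR-8908a in testis 1 to testis 5. The 95% Wilson interval was from 89.4% to 94.6% in testis 1 and from 64.0% to 96.5% in testis 3, where 14 of 16 reads were from the 3p arm. The arm shares of the 5 libraries thus differed by less than the counting error of testis 3.

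For miR-8908b the levels were 456, 18.2, 2.96, 897 and 871 RPM. All 5 testis libraries were above the highest other library, sciatic nerve 1, which had 2 reads or 2.06 RPM. It was the 1 miRNA of the 60 for which testis did not overlap the other tissues, and among all 650 this was so for 0.769%. The ratio of means was 2557-fold (exact rank-sum test, adjusted p = 1.14e-05, n = 5), and 3192-fold without testis 3. The margin in testis 3 was narrow, since its 2.96 RPM came from 6 reads.

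The next member, miR-8908c, had 271, 21.9, 0.987, 383 and 341 RPM. Elsewhere it had 9 reads in all, and its ratio was 2410-fold (exact rank-sum test, adjusted p = 1.76e-05, n = 5) or 3009-fold without testis 3. For miR-8908d the levels were 52.8, 3.65, 0.493, 100.2 and 122 RPM. Of the family it had the most reads outside testis after miR-8908a-3p, with 56 reads in other tissues and up to 4.66 RPM in brain 2. Its ratio was 146-fold (exact rank-sum test, adjusted p = 0.000997, n = 5), and 182-fold without testis 3. Testis 2 and testis 3 overlapped the other tissues for miR-8908d.

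The last 2 letters were lower. For miR-8908e there were 33.9, 0, 0, 31.9 and 27.9 RPM in testis and no read in the 71 libraries of other tissues. Against 3 reads per library elsewhere, the mean in testis was at least 4.64-fold higher. For miR-8908f there were 22.6, 0, 0.493, 45.5 and 52.2 RPM in testis, and 3 reads elsewhere. Both were TE in testis. For miR-8908e the fold criterion of 5 was met because the mean elsewhere was 0, and the bound of 4.64 is below it.

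Summed over the 7 members, miR-8908 reached 2330, 241, 12.8, 4631 and 3994 RPM in testis 1 to testis 5. Set against the sum of the 10 testis miRNAs in the same library, this was 3.90%, 4.39%, 2.00%, 4.21% and 4.19%. The libraries that were low in the testis list were thus low in miR-8908 too, and the quotient moved by far less than either sum. Testis 3, with 26 reads of miR-8908, had the lowest quotient. Outside testis, a miR-8908 read was found in 43 of 71 libraries. The sum there had a median of 1.20 RPM and reached 31.8 RPM in brain 1.

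The size of these ratios depended on the scaling. With DESeq2 size factors they were 243-fold for miR-8908a-3p, 259.7-fold for miR-8908a-5p, 1190-fold for miR-8908b, 1245-fold for miR-8908c and 92.9-fold for miR-8908d. Between medians with 1 RPM added to each, which limits the ratio where the level elsewhere is near 0, they were 745-fold, 114-fold, 457-fold, 272-fold and 53.8-fold in the same order. Under both settings each of the 5 was TE in testis.

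Low levels of the family outside testis were not spread evenly. In jejunum miR-8908a-3p had 6.31, 6.94, 11.1, 13.6 and 8.03 RPM, and in brain 26.7, 23.6, 0, 11.5 and 13.0 RPM. Single libraries of other tissues reached similar levels. Lung 4 had 15.9 RPM on 14 reads, above every jejunum library, while lung 1 to lung 3 had no read. Duodenum 2, ileum 3, thymus 4 and skeletal muscle 4 had 7.76 to 9.07 RPM, the last on 2 reads. In plasma no library had a read of miR-8908a-3p. By edgeR's quasi-likelihood test of each tissue against the mean of the other 15, its log2 difference was 2.24 ± 0.55 (SE) in jejunum (adjusted p = 0.000744) and 1.73 ± 0.52 in brain (adjusted p = 0.00261). Brain 3 had no read of it and overlapped the tissues without reads.

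**Figure D3:**
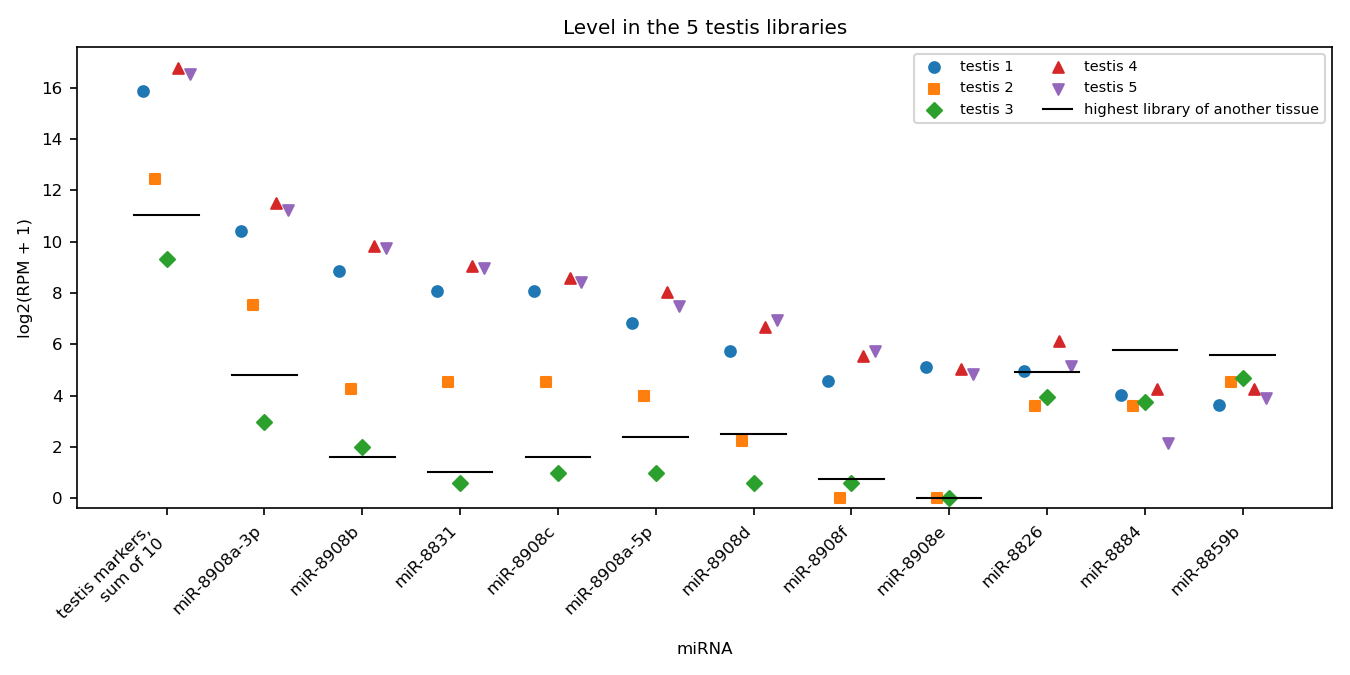
Level, as log2(RPM + 1), of the sum of the 10 miRNAs of the testis list, the 7 miR-8908 members, miR-8831, miR-8826, miR-8884 and miR-8859b in the 5 testis libraries (symbols), with a black line at the highest library of another tissue. For the miR-8908 members and miR-8831, testis 1, 4 and 5 lie above the line and testis 3 lies at or below it except for miR-8908b, while miR-8884 and miR-8859b lie below the line in all 5.

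Outside the miR-8908 family, miR-8831 was the most abundant in testis, with 268, 21.9, 0.493, 524 and 505 RPM. Its gene is not next to the miR-8908 run in the gene table. Elsewhere it had 7 reads in 5 libraries, none above 1.03 RPM. The ratio was 6073-fold (exact rank-sum test, adjusted p = 4.9e-05, n = 5) and 7588-fold without testis 3, but 3307-fold with DESeq2 size factors and 269-fold between medians with 1 RPM added. As a percentage of the testis list it made up 0.448, 0.399, 0.0771, 0.476 and 0.529 in testis 1 to testis 5, so that testis 3 was lowest here too, on 1 read.

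With miR-8813 the pattern recurred at a lower level, with 22.6, 0, 0, 36.4 and 34.8 RPM in testis and no read elsewhere. The mean was at least 4.65-fold higher than 3 reads per library elsewhere. This bound is below the fold criterion of 5, which miR-8813 met because its mean elsewhere was 0. In the miR-8799 family 5 letters were detected, miR-8799b, miR-8799c, miR-8799d, miR-8799f and miR-8799g. Each was found in testis alone, with 1 to 4 reads in all, and miR-8799b and miR-8799f were TE on 2 and 4 reads. Their levels are at or under 3 reads per library, so no order among the letters was detectable.

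Other testis members, named here after their values were seen, differed in how far they were found elsewhere. For miR-8801 there were 79.2, 0, 0.493, 13.7 and 94.0 RPM in testis and 1 read elsewhere, in lung 5. Testis 4, the library with the highest sum of the group, was not among the high ones for miR-8801. With miR-8826 the levels were 30.2, 10.9, 14.3, 68.3 and 34.8 RPM, and brain 1 had 29.3 RPM. Here testis 3 was not the lowest library, and 3 of 5 testis libraries were above all others. The ratio of means was 22.8-fold (exact rank-sum test, adjusted p = 1.76e-05, n = 5). For miR-8902 testis had 18.9, 3.65, 0, 4.55 and 6.96 RPM, and lung had reads in each of its 5 libraries, from 0.514 to 4.47 RPM.

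Some of the 60 have several gene copies in the gene table, in which 57 were found by name. The 7 with more than 1 gene copy were miR-8793, miR-8813, miR-8830, miR-8841, miR-8908a-3p, miR-8908a-5p and miR-8908d. All 7 were TE in testis, and of the 50 with 1 copy 19 were. The arms of miR-8908a share their gene copies, so they are not separate cases. Of all miRNAs detected in testis 9.85% were TE there, and no share by copy number over all miRNAs is given. The split by copy number was made after the values were seen and is given as a description. Reads with more than 10 genomic locations had been dropped, and the part of this in the levels was not tested.

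For bone marrow the leading miRNA was miR-8865, with 136, 62.8, 168, 68.8 and 120 RPM. The highest library elsewhere was skeletal muscle 1, with 11.9 RPM, so the 5 bone marrow samples did not overlap the other tissues (so for 0.923% of all miRNAs). The mean was 111 ± 44.7 RPM (SD, n = 5) and 1.14 RPM elsewhere, a 96.9-fold ratio (two-sided exact rank-sum test, adjusted p = 6.89e-06). The median was 10.02 times the highest other sample. Lower levels were found in thymus, with 5.0, 6.33, 3.42, 0.293 and 1.97 RPM, and in skeletal muscle, with 11.9, 0, 1.17, 9.07 and 3.17 RPM. These rested on 4, 1, 6, 1 and 1 reads in thymus and on 17, 0, 2, 2 and 1 in skeletal muscle. By edgeR the log2 difference from the other tissues was 2.13 ± 0.55 in thymus (adjusted p = 0.00242) and 3.72 ± 0.55 in skeletal muscle (adjusted p = 1.5e-07), the latter falling to 2.29 without skeletal muscle 1 and standing at 3.61 without skeletal muscle 4, the library low in muscle miRNAs. With the 6 libraries low in markers left out, the call in thymus was lost, at 0.99 (adjusted p = 0.256), while that in skeletal muscle was kept, at 3.66 (adjusted p = 2.12e-06). In plasma, where miRNAs known from red cells had their highest level, miR-8865 had no read in 5 libraries.

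The other 2 TE calls in bone marrow were miR-8835 and miR-8885, on 3 and 2 reads, and neither held without bone marrow 3. In brain miR-8903 was TE, with 5.09, 3.42, 1.47, 4.74 and 2.61 RPM. It was found in each brain library, and its ratio was 13.8-fold (exact rank-sum test, adjusted p = 4.24e-05, n = 5). It did not stand clear, since 1 read in bone marrow 3 came to 5.40 RPM. In plasma miR-8890 was TE on 4 reads in 2 libraries. These 4 were named after their values were seen.

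A second class of the 60 was found across tissues at low level. For miR-8884 reads were present in 75 of 76 libraries, for miR-8859b in 72 and for miR-8859a in 71. Over all libraries their medians were 15.2, 8.84 and 13.4 RPM. None of these 3 was TE in any tissue, but their levels differed between tissues by the test of each against the mean of the other 15. Over the 18 of the 60 that passed the filter on low counts, 48 of 288 pairs of miRNA and tissue were called (16.7%, against 38.9% of all pairs tested). In testis 14 were called higher and 2 lower, where 34.0% and 16.0% of all miRNAs tested were called. Most of the 18 passed the filter through testis, so that the testis count is a description only.

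Outside testis the calls were few and belonged to miR-8859a, miR-8859b, miR-8884, miR-8865, miR-8826 and the miR-8908 family. Of these, miR-8826 was called higher in brain, colon, kidney and skeletal muscle. In jejunum 5 of the 18 were called higher (27.3% of all miRNAs), 4 of them of the miR-8908 family. In brain 3 were called higher (45.2%), with miR-8826 beside miR-8908a-3p and miR-8908d, and 1 lower (28.1%). In bone marrow 3 were called higher (16.5%) and 1 lower (24.6%). The members behind these counts thus differed from tissue to tissue. In kidney 2 were called higher (24.2%) and 1 lower (10.2%), and in plasma 1 higher (27.9%) and 2 lower (24.8%). In duodenum 1 was called higher (21.0%) and 1 lower (3.75%), and in heart 1 lower (17.3%). Calls of a higher level numbered 3 in skeletal muscle (26.5%), 2 in pancreas (21.2%), 2 in sciatic nerve (24.8%), and 1 each in colon (18.5%), liver (23.3%) and thymus (21.2%). In ileum and lung edgeR called none. At an unadjusted p under 0.05 there was 1 in lung, miR-8859a, and 0 in ileum, and the DESeq2 Wald test called 1 in lung and 0 in ileum.

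The level of miR-8884 was highest in bone marrow, with 43.1, 33.5, 54.0, 37.0 and 46.0 RPM. Kidney was lowest among the tissues of 5 samples by its median, with 4.59, 5.09, 2.03, 6.91 and 4.63 RPM. Bone marrow and kidney did not overlap. Brain, from 15.7 to 37.9 RPM, overlapped bone marrow and pancreas, and pancreas, from 16.4 to 28.0 RPM, did not overlap bone marrow. The log2 difference from the other tissues was 1.06 ± 0.25 (SE) in bone marrow (edgeR, adjusted p = 0.000341), 0.87 ± 0.22 in pancreas (adjusted p = 0.000687) and -1.08 ± 0.26 in kidney (adjusted p = 0.000563). In heart it was -0.72 ± 0.27 (adjusted p = 0.0276) and in testis -0.68 ± 0.29 (adjusted p = 0.0456). The call in heart was lost with DESeq2 size factors or without heart 2, that in pancreas without pancreas 1, and that in testis without testis 5 or with library size as the only scaling. In testis it was -1.21 with the 6 libraries low in markers left out. Without bone marrow 1 the value in bone marrow was 1.65. The median log2 difference of all 480 miRNAs tested was -0.97 in bone marrow, -0.59 in plasma, 0.13 in brain and 0.32 in testis, so the bone marrow and plasma values stand against a lower middle of the table.

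For miR-8859a bone marrow was again highest, with 67.8, 50.2, 37.8, 63.5 and 64.4 RPM. Jejunum followed, with 40.0, 26.8, 20.3, 46.4 and 51.4 RPM, and overlapped it. Plasma was lowest among the tissues with reads in most libraries, at 0, 1.70, 0.721, 0.639 and 0.691 RPM. In testis 3 of 5 libraries had no read and the others had 3.95 and 6.96 RPM. The log2 difference was 1.86 ± 0.35 in bone marrow (edgeR, adjusted p = 6.62e-06), 1.72 ± 0.30 in jejunum (adjusted p = 2.18e-06) and 1.43 ± 0.31 in duodenum (adjusted p = 0.000255). It was also positive in liver, at 1.30 ± 0.31 (edgeR, adjusted p = 0.000546), and in pancreas, at 1.07 ± 0.32 (adjusted p = 0.00475). It was -3.35 ± 0.60 in plasma (adjusted p = 1.47e-06), -2.31 ± 0.43 in brain (adjusted p = 2.27e-06) and -2.37 ± 0.55 in testis (adjusted p = 0.000203), where it was -3.35 without testis 3.

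Its neighbour in the gene table, miR-8859b, had another order of tissues. Plasma was high, with 21.8, 43.0, 36.7, 47.3 and 24.9 RPM, and so was sciatic nerve, with 46.3 and 26.6 RPM. Duodenum was lowest, with 0, 3.11, 4.33, 1.56 and 1.05 RPM, and did not overlap plasma. The log2 difference was 2.59 ± 0.27 in plasma (edgeR, adjusted p = 2.28e-13), 1.43 ± 0.28 in kidney (adjusted p = 2.14e-05, lost with library size as the only scaling) and -1.84 ± 0.44 in duodenum (adjusted p = 0.000745). In plasma and in duodenum the letters thus differed in opposite directions from the other tissues, while each of these 4 values passed the test. In testis miR-8859b had 11.3, 21.9, 24.7, 18.2 and 13.9 RPM, with no low value in testis 3.

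Taken as the share of miR-8859a in the reads of both letters, the samples ran from 0 to 3.80% in plasma and from 85.7% to 100% in duodenum. In bone marrow the share was from 77.8% to 100%, in liver from 77.8% to 86.7% and in brain from 16.9% to 41.4%. By these measured shares plasma did not overlap any of these 4 tissues. Plasma 1 had no read of miR-8859a and 6 of miR-8859b, and its 95% Wilson interval reached 39.0%, within the range of brain. Shares in testis ran from 0 to 33.3%, on few reads. In testis 1, 2 and 4 miR-8859a had no read and miR-8859b had 3, 6 and 4, and testis 5 had 6 reads of both letters. The test of the share itself was not run, and reads that match both letters could not be assigned from counts.

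**Figure D4:**
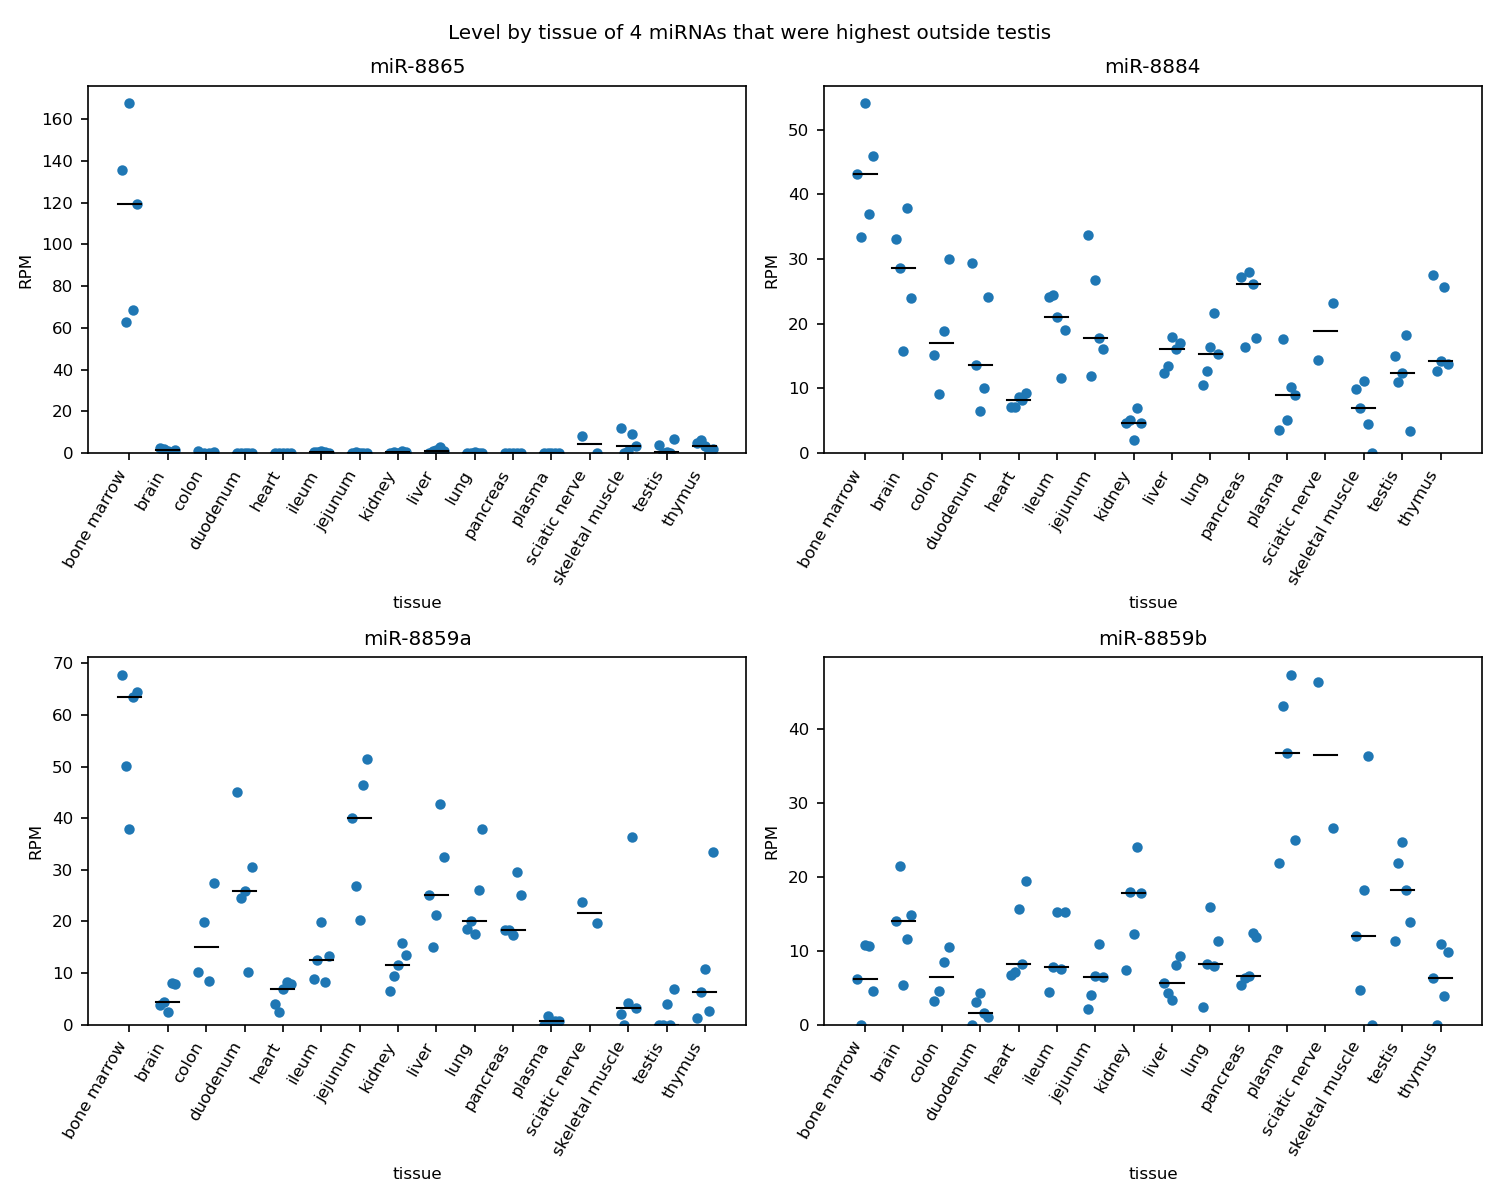
Level in RPM of miR-8865, miR-8884, miR-8859a and miR-8859b by tissue, with 1 point per library and a line at the tissue median, each panel on its own axis from 0. The bone marrow points of miR-8865 lie from 62.8 to 168 RPM with all other tissues at or below 11.9 RPM, and plasma is low for miR-8859a and high for miR-8859b.

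At a still lower level, miR-8829 was found in 46 libraries of 15 tissues with 103 reads in all, and its median over all libraries was 0.559 RPM. Its highest value was 6.33 RPM in thymus 2, which was 1 read. It was TE in no tissue. Named after their values were seen, miR-8858 had 101 reads in 16 tissues and was highest by its median in thymus, at 2.85 RPM, and miR-8876 had 62 reads in 15 tissues and was highest by its median in plasma, at 2.83 RPM. Neither was TE.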

How the data were processed

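Small RNA libraries of 16 tissues were grouped by the tissue in the sample labels. After removal of adaptors the authors placed reads on CanFam3.1 without mismatches and dropped those with more than 10 locations. They assigned a read by an overlap of at least 70% with a known miRNA of dog, rat or human. The deposited counts per miRNA, the deposited totals per library and the deposited RPM were read. Counts divided by totals gave the RPM listed within a relative difference of 2.89e-09. A miRNA with no listed count was set to 0. The deposited maximum RPM per miRNA covers all samples and was not used. Of 77 labelled samples, 1 of colon had no values. The table held 1 sample name with no certain label, which was not used.

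The members and lists were chosen with earlier results of these data known. For TE, the exact rank-sum p (midranks, two-sided, at smallest 1.08e-07 for 5 samples) was adjusted by Benjamini-Hochberg over the miRNAs detected in a tissue. High expression was a tissue median above 100 RPM. For HTE in 2 tissues, the second median had to exceed 70% and the third stay below 20% of the highest. Counts of all miRNAs went into edgeR 4.0.16, in which filterByExpr kept 480, scaling was by TMM and the quasi-likelihood test compared each tissue with the mean of the other 15. The SE beside an edgeR log2 difference was not fitted. It is the size of the difference divided by the square root of the test's F statistic, and is approximate. The Wald test of DESeq2 1.42.0 was also run. The versions were 4.3.3 for R and 3.11.15 for Python (numpy 2.4.6, pandas 2.3.3, scipy 1.17.1, matplotlib 3.10.9). Scaling, pseudocount, reference, family of tests, filters and left-out samples were varied. The procedures were also run on simulated data, where recovery of TE was counted only for miRNAs with many reads. That run does not cover members with few reads.

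No fold is given where 1 to 3 reads were found elsewhere. Where none was found, the fold is against 3 reads per library, on average 4.04 RPM outside testis, and is a lower bound. That limit and the intervals cover counting error only. Numbers after a tissue are sample names, given in the order of deposition. In 147 pairs of the same tissue, libraries differed by more than counting error (lowest chi-square per degree of freedom 10.3). The miRNAs named are those the study names, those TE and highly expressed, the 5 highest by tissue median and the 5 highest by median over all libraries, those in every library, the TE member of each tissue with the largest fold among medians above 10 RPM, and those that share a number. Others are marked in the text. Gene neighbours are from RefSeq, assembly UU_Cfam_GSD_1.0, in which 57 of 60 names matched.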

Additional observations from a re-analysis of the deposited data

Results flagged for a closer look

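Among 72 groups of 4 or 5 samples that were examined for a sample far from the others, 2 held one, and chance alone gives about 1 in 20. In colon the summed level of the 60 miRNAs was 77.8 RPM in the highest sample, and its gap to the next took up 0.836 of the range of the 4 samples. In skeletal muscle miR-8859a was at 36.3 RPM in the highest sample, against 0 to 4.10 RPM in the other 4, and the gap took up 0.887 of the range. That sample is skeletal muscle 4, in which miR-206 was at 4.54 RPM and miR-133a at 676 RPM, below the other 4, and which was nearest to sciatic nerve by rank correlation. The part of this in the level was not tested.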

How the results depend on the processing

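Leaving out 1 library at a time, the TE number was 27 to 32 in all, 22 to 26 in testis and 1 to 3 in bone marrow (1 without bone marrow 3). In the same way high expression and HTE ran from 5 to 6, members detected from 54 to 60, pairs called by edgeR from 43 to 53, members called higher in testis from 10 to 14, and the median summed level from 1601 to 3885 RPM in testis and from 219 to 260 RPM in bone marrow. With medians and 1 RPM added, 19 were TE, 17 of them in testis. With at least 10 reads in 1 library, 14 were TE, 12 in testis and 1 in bone marrow, and 19 were detected. Without a level filter 20 were HTE. With TMM or DESeq2 size factors 4 were TE and highly expressed, and 4 were HTE. Without a filter on low counts edgeR called 89 pairs and 35 members higher in testis, and the DESeq2 Wald test called 39 and 7. Without miR-8865 the median summed level in bone marrow was 128.8 RPM. With library size as the only scaling, the log2 differences moved to -1.78 for miR-8884 in kidney, -1.25 for miR-8859a in brain, 0.69 for miR-8859b in kidney and 2.84 for miR-8908a-3p in brain. For miR-8865 in sciatic nerve the sign turned without sciatic nerve 1, to -2.97 (3.60 without sciatic nerve 2), which leaves 1 sample assumed to vary like the other tissues. In bone marrow and skeletal muscle calls of miR-8859b were lost in most settings. The cause was not tested where the construction of a setting does not show it. With the 6 libraries low in markers of their label left out together (chosen after seeing the data), 32 were TE, 26 of them in testis, 6 were HTE, 59 pairs were called and 13 members were called higher in testis. No paired analysis was run because the labels give no dog number and sample numbers follow the order of deposition. The solid tissues were deposited in repeating runs of much the same order, but no label says that a run is a single dog. With 26 of 60 members at 3 reads or fewer in all, depth limits most single patterns.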
